A study of Mus musculus with 4 samples.

Results

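The 39 genes described here encode the proteins by which a mouse embryonic fibroblast (MEF) holds on to its matrix and to its neighbors. They are 11 integrin alpha chains, 6 integrin beta chains, 5 cadherins, 4 signaling proteins of focal adhesions, 7 proteins that link integrins to actin, 5 tensins and actin crosslinkers, and fibronectin. They were taken by the gene name that the array gives to a probe, and make up 39 of the 31824 named genes and 57 of the 39429 probes. MEFs of 2 genotypes, WT (p53+/+) and p53-/-, were each cultured in the absence or presence of doxorubicin, an anticancer drug that damages DNA by trapping topoisomerase II. Total RNA of each of these 4 conditions was labeled with Cy3 and hybridized to 1 one-color Agilent mouse expression array, and the 4 arrays lay on 1 slide. The labels give no dose, no treatment time, no mouse strain and no number of embryos for the arrays. Since each condition had 1 array, no difference below has a replicate check, no p-value was calculated, and condition and position on the slide cannot be told apart.

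Integrins are pairs of an alpha and a beta chain that span the plasma membrane. The pair decides which matrix protein is bound. The alpha chains Itga1, Itga2 and Itga11 bind collagens, Itga3, Itga6 and Itga7 bind laminins, Itga5, Itga8 and Itgav bind fibronectin and other proteins with an RGD sequence, and Itga4 and Itga9 bind fibronectin splice forms, VCAM-1 or tenascin. Inside the cell, talins and kindlins bind the beta tails and switch integrins to their active state, vinculin, parvin and the PINCH proteins tie the complex to actin, and focal adhesion kinase (the product of Ptk2) starts signals from it. Cadherins join neighboring cells by binding the same cadherin on the other side, and fibroblasts are known for N-cadherin (Cdh2) and cadherin-11 (Cdh11) rather than E-cadherin (Cdh1). The study looked for p53-dependent genes that act on myosin after DNA damage, and the comparisons here ask how the genes of attachment differed in the same arrays.

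A scaled signal below is the signal of a probe divided by the 75th percentile of all probes on its array, so 1 means a probe at that percentile. A ratio is given on the log2 scale, where 1 is a 2-fold difference. Of several probes for a gene, the one brightest on average was used. Its ratio was called measured where Feature Extraction, the program that reads the spots, marked it as well above background on both arrays. The lowest scaled signals so marked were 0.0273 in untreated WT, 0.0244 in doxorubicin-treated WT, 0.0308 in untreated p53-/- and 0.0360 in doxorubicin-treated p53-/- MEFs. The brightest negative control spots stood at 0.0522, 0.0426, 0.133 and 0.0494 in the same order, so the weakest members were within reach of background, most of all on the array of untreated p53-/- MEFs. Of the 39 members, 35 were well above background on all 4 arrays. Pxn was so on 3, Cdh1 on 2, Itga2 on 1 and Itgb8 on 0. The error given after a ratio is that of Feature Extraction for the spots, carried to the ratio, which had a median of 0.20 and a highest value of 0.45. It covers spots within an array and not cultures or labeling reactions. The SD between repeat spots of 1 probe within an array, over 248 probes, came to 0.11 for a ratio.

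The targeted gene went with the genotype labels. Trp53 had a scaled signal of 0.592 in WT MEFs without and 1.89 with doxorubicin, against 0.235 and 0.224 in p53-/- MEFs. The sources used here do not say which part of the gene is deleted, so the place of the probe relative to the deletion is unknown. All 12 fibroblast markers tested, among them Col1a1, Vim and Thy1, were well above background on every array. RNA of whole cultures was measured, so fewer cells of a type and less RNA per cell cannot be told apart.

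**Figure D1:**
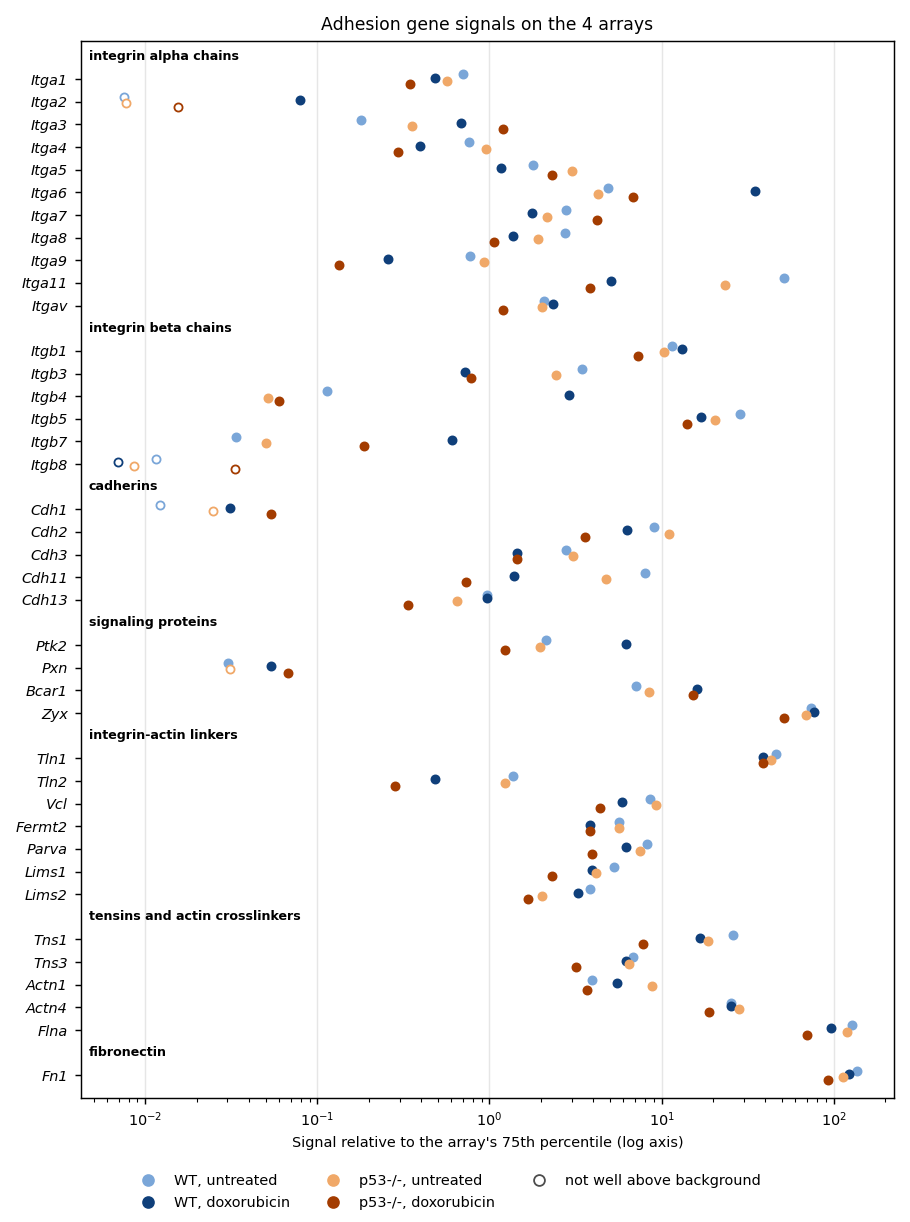
Scaled signal of each of the 39 adhesion genes on the 4 arrays, on a log axis where 1 is the 75th percentile of the array; 1 point is 1 array and open points were not well above background. Itgb4, Itga6 and Ptk2 of doxorubicin-treated WT MEFs stand to the right of their other 3 points, and Itga11, Itgb3 and Cdh11 have both treated points to the left of both untreated ones.

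Upon doxorubicin treatment of WT MEFs, integrin genes lay at both ends of the range. The laminin-binding pair Itga6 and Itgb4, the laminin-binding Itga3 and the leukocyte-type Itgb7 were higher, while the collagen-binding Itga11, the RGD-binding Itgb3 and Itga8, and Itga9 were lower. Of the 36 members measured, 6 were at least 2-fold higher, which is 16.7%, against 11.0% of all 17546 genes measured. Another 6 were at least 2-fold lower, again 16.7%, against 10.4% of all genes. The median log2 ratio of the members was −0.41, and that of all genes was 0.01. When arrays were scaled to their median instead, the median of all genes moved to −0.27 in WT and to −0.30 in p53-/- MEFs. In WT MEFs 5 members were then higher and 9 lower, when 7.53% and 15.9% of all genes were. Directions below are relative to the 75th percentile.

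The pair Itga6 and Itgb4 forms the integrin of hemidesmosomes, the junctions that anchor epithelial sheets to laminin. Itgb4 had scaled signals of 0.113 and 2.89 in WT MEFs without and with doxorubicin, and of 0.0519 and 0.0599 in p53-/- MEFs. Only the array of treated WT MEFs was high, and the untreated p53-/- value was below the brightest negative control of its array. The log2 ratio with doxorubicin was 4.68 ± 0.23 in WT MEFs, a 25.6-fold difference, and just 39 of 17546 genes had a higher one. In p53-/- MEFs it was 0.21 ± 0.37, a value that turned to −0.09 with array median scaling and to −0.18 with quantile normalization. The Itgb4 probe lies at chr11:115869666-115869725 in mm9, the build of the array files.

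Itga6 had scaled signals of 4.91 and 35.1 in untreated and treated WT MEFs, and of 4.28 and 6.84 in p53-/- MEFs. The untreated arrays were close, and both treated arrays were above them, by 7.16-fold in WT (log2 ratio 2.84 ± 0.20) and by 1.60-fold in p53-/- MEFs (0.67 ± 0.20). The probe of Itga6 lies at chr2:71694756-71694815. Itga3, the chain that pairs with Itgb1 to bind laminin, had scaled signals of 0.180, 0.680, 0.354 and 1.20 in untreated WT, treated WT, untreated p53-/- and treated p53-/- MEFs. It was higher with doxorubicin in both genotypes, at log2 ratios of 1.92 ± 0.21 and 1.77 ± 0.21, and it was also higher in p53-/- than in WT MEFs at either state. Itga7, the laminin chain known from muscle, went the other way between genotypes. Its scaled signals were 2.78 and 1.76 in WT and 2.16 and 4.24 in p53-/- MEFs, so the log2 ratio was −0.66 ± 0.20 in WT and 0.97 ± 0.20 in p53-/- MEFs.

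Itgb7 pairs with Itga4 or Itgae and is known for homing of lymphocytes. Its scaled signals were 0.0335 and 0.605 in WT and 0.0505 and 0.187 in p53-/- MEFs. Both treated arrays were above both untreated ones, but the untreated values were below the brightest negative controls of their arrays. The log2 ratios were 4.18 ± 0.33 and 1.89 ± 0.28, or 18.1-fold and 3.70-fold. With normexp background correction the WT ratio was 3.17, or 8.98-fold. Leukocyte markers, measured beside it for that reason, had summed scaled signals of 16.3, 23.4, 18.4 and 15.3 in untreated WT, treated WT, untreated p53-/- and treated p53-/- MEFs, and 7 to 9 of 10 were well above background. Itgam made up most of each sum. Of 8 markers measured in WT MEFs, only Cd14 was at least 2-fold higher, or 12.5% against 11.0% of all genes, and 0 were at least 2-fold lower. Of these 8, 5 had ratios above 0 and 3 below. In p53-/- MEFs 0 of 7 passed 2-fold. The log2 ratio of Cd14 was 3.74 in WT and 0.62 in p53-/- MEFs, and that of Csf1r was −0.63 and 0.06. Ptprc, the pan-leukocyte CD45 gene, ranged from 0.0315 to 0.0431, below the brightest negative control of each array. The part of these markers in the Itgb7 result was not tested.

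The collagen-binding chains did not move together. Itga11, a receptor for fibrillar collagen on fibroblasts, had scaled signals of 51.5 and 5.07 in WT and 23.3 and 3.83 in p53-/- MEFs. It was lower with doxorubicin by 10.1-fold in WT (log2 ratio −3.34 ± 0.20) and by 6.08-fold in p53-/- MEFs (−2.60 ± 0.20). Among all genes measured, 61 had a lower ratio in WT and 47 in p53-/- MEFs. The Itga11 probe lies at chr9:62631667-62631726. Itga1, which prefers basement membrane collagen, stayed within 2-fold, with log2 ratios of −0.53 and −0.72. Itga2 cleared background on 1 array, that of WT MEFs with doxorubicin, with a scaled signal of 0.0797 there and 0.00753, 0.00772 and 0.0155 in untreated WT, untreated p53-/- and treated p53-/- MEFs. Against the lowest signal that counts as well above background, treated WT MEFs were at least 2.92-fold above untreated WT and at least 2.22-fold above treated p53-/- MEFs. Set against the brightest negative controls, these bounds were 1.53-fold and 1.61-fold.

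Of the chains that bind RGD sequences, Itgb3 stood lowest in ratio. It pairs with Itgav as the vitronectin receptor. Its scaled signals were 3.47 and 0.725 in WT and 2.44 and 0.778 in p53-/- MEFs, 4.78-fold and 3.14-fold lower with doxorubicin (log2 ratios −2.26 ± 0.20 and −1.65 ± 0.20). Its partner Itgav was within 2-fold in both, and its probes differed. The brighter probe gave 0.17 in WT and −0.75 in p53-/- MEFs, and the other gave 0.31 and 0.15, so no direction is given for this gene in p53-/- MEFs. Itga5, the main fibronectin receptor chain, had ratios of −0.63 and −0.38, and Itgb5, the other vitronectin partner of Itgav, had −0.77 and −0.53. Itga8, which binds nephronectin, stood at the threshold in WT MEFs with a ratio of −1.01 ± 0.20, a call that was lost with quantile normalization, and at −0.85 in p53-/- MEFs. Itgb1, the common partner of most alpha chains here, had scaled signals of 11.5, 13.2, 10.3 and 7.28 in untreated WT, treated WT, untreated p53-/- and treated p53-/- MEFs. Its log2 ratios were 0.19 in WT, a sign that turned with array median scaling, and −0.50 in p53-/- MEFs.

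Itga4 and Itga9, whose products are related in sequence, were both lower with doxorubicin. Itga9 had scaled signals of 0.769 and 0.258 in WT and 0.930 and 0.133 in p53-/- MEFs, with log2 ratios of −1.58 ± 0.21 and −2.80 ± 0.22. Only 25 of 16978 genes had a lower ratio in p53-/- MEFs. Itga4 had scaled signals of 0.759 and 0.395 in WT and 0.952 and 0.295 in p53-/- MEFs, and its ratios were −0.94 ± 0.21 and −1.69 ± 0.21, so that it passed 2-fold in p53-/- MEFs and not in WT MEFs. Itgb8 was not well above background on any array, and no ratio is given for it.

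Of the cadherins, Cdh11 had the lowest ratio in both genotypes. Its scaled signals were 8.04 and 1.40 in WT and 4.76 and 0.735 in p53-/- MEFs. It was thus 5.75-fold lower with doxorubicin in WT (log2 ratio −2.52 ± 0.20) and 6.47-fold lower in p53-/- MEFs (−2.69 ± 0.20), and its second probe gave −1.75 and −2.51. In p53-/- MEFs, 37 of all genes measured had a lower ratio. Cdh2 had scaled signals of 9.02 and 6.31 in WT and 11.0 and 3.60 in p53-/- MEFs, so its ratio stayed within 2-fold in WT (−0.52 ± 0.20) and passed it in p53-/- MEFs (−1.61 ± 0.20). Cdh3, or P-cadherin, had nearly equal ratios of −0.95 and −1.08 on either side of the threshold. Cdh13, or T-cadherin, which lacks a cytoplasmic tail, had scaled signals of 0.966 and 0.970 in WT and 0.651 and 0.335 in p53-/- MEFs. Its ratio was 0.01 in WT MEFs, and below 0 there with array median scaling, and −0.96 in p53-/- MEFs. Cdh1 was well above background only on the treated arrays, at 0.0309 in WT and 0.0535 in p53-/- MEFs, which bounds its difference from untreated cells to at least 1.13-fold and at least 1.74-fold. The treated WT value was below the brightest negative control of its array, and against the brightest negative controls of the untreated arrays no bound remained in either genotype.

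Epithelial markers are given here because hemidesmosome integrin and E-cadherin are epithelial genes. Between 6 and 7 of 9 markers were well above background, and their summed scaled signals were 7.67 and 31.0 in untreated and treated WT MEFs and 7.85 and 35.7 in p53-/- MEFs. Krt18 and Krt19 made up most of each sum. The log2 ratio of Krt19 was 3.51 in WT and 2.91 in p53-/- MEFs, and Krt18 had 0.91 and 1.91. Krt8 had −0.46 and 0.32, and Esrp1 had 0.23 and 0.36. Of 6 markers measured, 3 were at least 2-fold higher in WT and 4 in p53-/- MEFs, against 11.0% and 9.24% of all genes. In both genotypes 0 were at least 2-fold lower. Krt5 was well above background only in treated WT MEFs, where its scaled signal was 0.523, as was the case for Itga2. Epcam and Cldn4, which define epithelial cells, were not well above background on any array. The sums were higher with doxorubicin in both genotypes, unlike Itgb4, and their part in the results was not tested.

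Signaling genes of focal adhesions were the only group in which every measured member had a ratio above 0 in WT MEFs, and for Zyx, at 0.05, that sign turned with array median scaling. Ptk2 encodes focal adhesion kinase. The Ptk2 probe with the highest mean had scaled signals of 2.13 and 6.21 in WT and 1.96 and 1.22 in p53-/- MEFs. The array of treated WT MEFs was the only high one, and the log2 ratios were 1.54 ± 0.20 and −0.68 ± 0.20. The other probes of Ptk2 did not all share this. The brighter probe lies at chr15:73035632-73035691 in mm9. A second, at chr15:73151206-73151265, had scaled signals of 0.293, 0.259, 0.304 and 0.189 in untreated WT, treated WT, untreated p53-/- and treated p53-/- MEFs, with ratios of −0.18 and −0.68. The third, at chr15:73046031-73046090, was well above background only in treated WT MEFs, at 0.0937. When the 3 probes were averaged, the ratio of Ptk2 was 0.97 in WT MEFs, no longer 2-fold, and −1.08 in p53-/- MEFs. This average takes in the third probe on all arrays. Its signals of 0.0323 in untreated WT and of 0.0333 and 0.00909 in untreated and treated p53-/- MEFs were not well above background. The other probes both gave −0.68 in p53-/- MEFs, so the averaged value passes 2-fold there only through the third probe. The 2-fold call in WT MEFs thus rests on the probe used and was not shared by the second one.

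Bcar1, the p130Cas scaffold that focal adhesion kinase and Src phosphorylate, had scaled signals of 7.08 and 16.0 in WT and 8.49 and 15.2 in p53-/- MEFs. Both treated arrays were above both untreated ones, with log2 ratios of 1.18 ± 0.20 and 0.84 ± 0.20, and the 2-fold call in WT MEFs was lost with array median scaling. Pxn, the adaptor paxillin, was dim throughout, with scaled signals of 0.0303 and 0.0540 in WT and 0.0311 and 0.0675 in p53-/- MEFs. The untreated p53-/- signal was not well above background, and treated p53-/- MEFs were at least 2.17-fold above it. Against the brightest negative control of the untreated p53-/- array no bound remained. The WT ratio was 0.84 ± 0.37. Zyx, a LIM protein found on stressed actin fibers, had a ratio of 0.05 in WT and of −0.41 in p53-/- MEFs.

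All 7 genes for the links between integrins and actin had a ratio below 0 in both genotypes, and most stayed within 2-fold. Their median log2 ratio was −0.42 in WT and −0.86 in p53-/- MEFs. Tln2, the talin known from muscle and brain, had scaled signals of 1.37 and 0.481 in WT and 1.24 and 0.282 in p53-/- MEFs, with ratios of −1.51 ± 0.20 and −2.14 ± 0.21. Tln1, the talin that fibroblasts chiefly use, had −0.27 and −0.17, and its second probe gave 0.04 and −0.52. Vcl, which encodes vinculin, had scaled signals of 8.60 and 5.92 in WT and 9.28 and 4.36 in p53-/- MEFs. Its ratio was −0.54 in WT and −1.09 in p53-/- MEFs, and the second probe gave −0.06 and −0.79, so its 2-fold call in p53-/- MEFs was lost when probes were averaged. Fermt2, or kindlin-2, had nearly the same ratio in both, −0.55 and −0.56. The PINCH genes Lims1 and Lims2 had −0.42 and −0.25 in WT and −0.86 and −0.26 in p53-/- MEFs. The 3 probes of Parva, which encodes alpha-parvin, all had ratios below 0, from −1.22 to −0.42 in WT and from −1.27 to −0.94 in p53-/- MEFs.

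Promoter sequences were looked at because p53 itself, serum response factor and TEAD factors are known to act on genes of adhesion and actin. RefSeq promoters (GRCm38.p6) were found for 24 members, with 28 windows, and the 250 bases before the start were searched on both strands. No promoter was matched for Itga6, Itga7, Itgb3, Itgb4, Cdh1, Cdh2, Cdh3, Cdh11, Cdh13, Ptk2, Pxn, Tln2, Parva, Lims2 and Fn1. The p53 half-site was held by 7.13% of all 32851 promoters and by 1 member, Itga9. The CArG box, which serum response factor binds, was held by 1.47% of all promoters and by Vcl and Fermt2. The TEAD motif, GGAATG or CATTCC, was held by 12.6% of all promoters and by Actn4, Flna, Itgb1 and Vcl. The p53 half-site of Itga9 and the CArG boxes of Vcl and Fermt2 are shown in capitals with the bases around them, 5′ to 3′ on the strand of the gene. TEAD matches are not shown. The log2 ratios of Itga9, Vcl and Fermt2 with doxorubicin were −1.58, −0.54 and −0.55 in WT and −2.80, −1.09 and −0.56 in p53-/- MEFs. The part of the motifs in these ratios was not tested. A match is a stretch of letters and not a measured binding site.
Itga9, chr9:118711481-118711540, plus strand, motif 186 bases before the start: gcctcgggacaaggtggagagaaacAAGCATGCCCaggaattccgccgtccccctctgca
Vcl, chr14:20929148-20929205, plus strand, motif 227 bases before the start: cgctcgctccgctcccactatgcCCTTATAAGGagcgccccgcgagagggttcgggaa
Fermt2, chr14:45530235-45530294, minus strand, motif 204 bases before the start: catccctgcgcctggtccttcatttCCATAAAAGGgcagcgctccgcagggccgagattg

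The tensins and actin crosslinkers had lower ratios in p53-/- than in WT MEFs. None of these 5 genes was 2-fold different with doxorubicin in WT MEFs, and 3 were at least 2-fold lower in p53-/- MEFs, where 6.89% of all genes were. Tns1, a tensin of fibrillar adhesions, had scaled signals of 25.9 and 16.6 in WT and 18.7 and 7.79 in p53-/- MEFs, with ratios of −0.64 and −1.26. Tns3 had ratios of −0.14 and −1.02, and its other probe gave −0.34 in p53-/- MEFs, so that call was lost when probes were averaged. Actn1, the alpha-actinin of stress fibers, had scaled signals of 3.92 and 5.50 in WT and 8.77 and 3.69 in p53-/- MEFs. The untreated p53-/- array was the high one, and the ratios were 0.49 ± 0.20 and −1.25 ± 0.20. Actn4 had ratios of 0.00 in WT, a value whose sign turned under array median scaling, quantile normalization and normexp, and −0.57 in p53-/- MEFs. Flna, or filamin A, had −0.40 and −0.76. Fn1, the fibronectin that many of these integrins bind, had scaled signals of 138, 123, 114 and 92.7 in untreated WT, treated WT, untreated p53-/- and treated p53-/- MEFs and thus ratios of just −0.16 and −0.29.

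**Figure D2:**
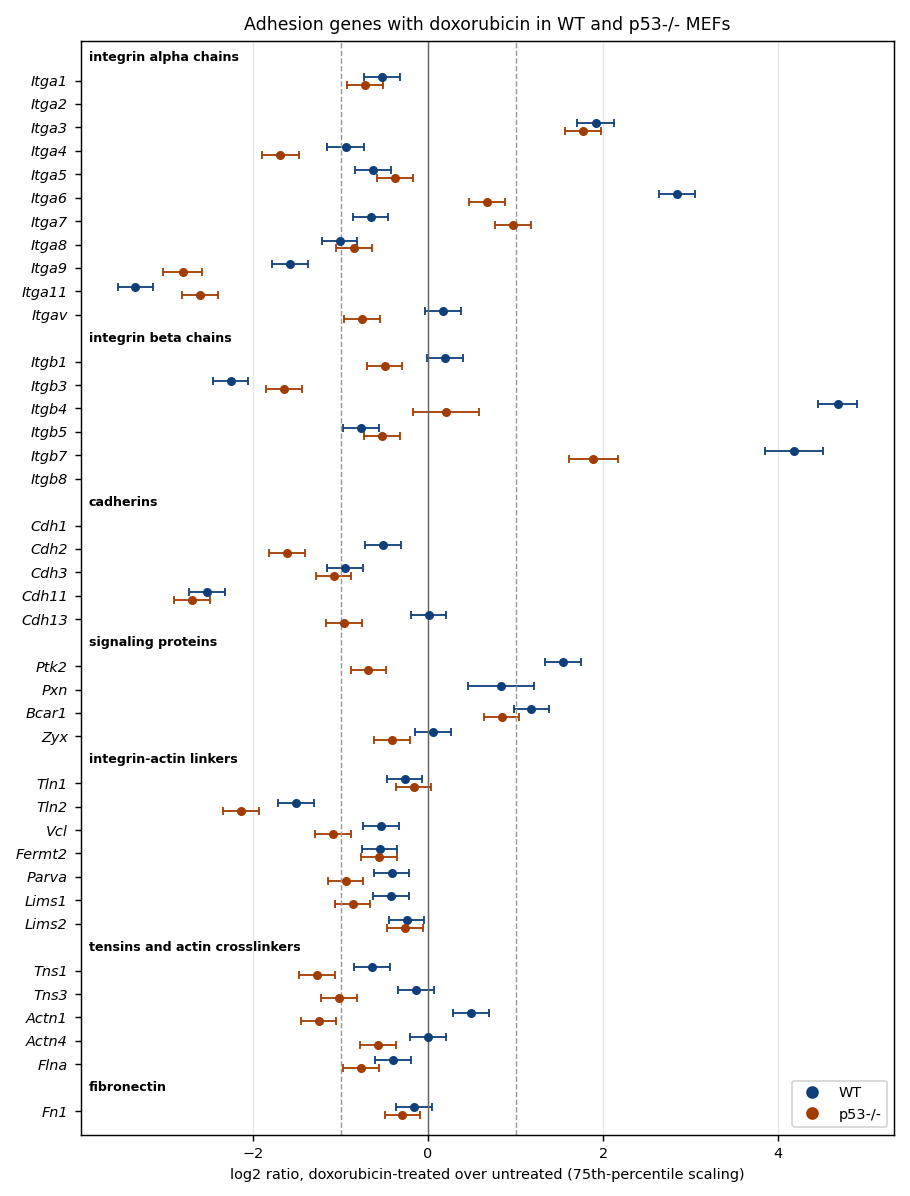
Log2 ratio of doxorubicin-treated over untreated MEFs for each adhesion gene measured on the arrays compared, in WT (blue) and p53-/- MEFs (brown); bars are the spot error of Feature Extraction and dashed lines mark 2-fold. Itga2, Itgb8 and Cdh1 have no point and Pxn has 1. The brown points lie left of the blue ones for 28 of the 35 genes measured on all arrays.

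In p53-/- MEFs as a whole, doxorubicin left more members lower and fewer higher than in WT MEFs. Of 35 measured, 12 were at least 2-fold lower, which is 34.3% against 6.89% of all 16978 genes measured, and 2 were at least 2-fold higher, which is 5.71% against 9.24%. With array median scaling 19 were lower, when 12.4% of all genes were. The median log2 ratio of the members was −0.75 and that of all genes 0.00. The 2 higher genes were Itga3 and Itgb7. The 12 lower genes were Itga4, Itga9, Itga11, Itgb3, Cdh2, Cdh3, Cdh11, Tln2, Vcl, Tns1, Tns3 and Actn1. Over the 35 genes measured on all 4 arrays, 7 were lower only in p53-/- MEFs, a pattern seen in 3.45% of 16538 genes, and 5 were lower in both, seen in 3.33%. Itga6, Itgb4, Bcar1 and, by its brighter probe, Ptk2 were higher only in WT MEFs, a pattern of 6.39% of genes. Another 16 members stayed within 2-fold in both, as did 70.9% of genes. A gene past 2-fold in 1 genotype alone need not differ between genotypes, as Bcar1, Cdh3 and Itga8 show with ratios close to each other.

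**Figure D3:**
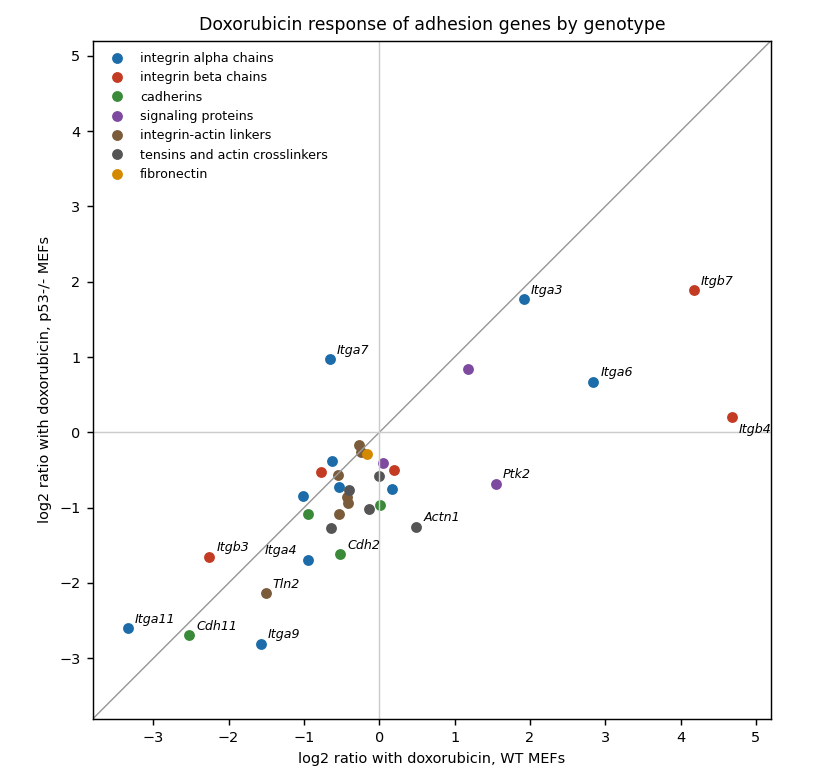
Log2 ratio with doxorubicin in WT MEFs (horizontal) against that in p53-/- MEFs (vertical) for the 35 adhesion genes measured on all arrays, colored by role; the diagonal marks equal ratios. Itgb4, Itgb7, Itga6 and Ptk2 lie far below the diagonal and Itga7 lies above it.

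The difference of the ratios (WT minus p53-/-) used all 4 arrays. It was above 0 for 28 of 35 members, with a median of 0.46 against 0.01 for all 16538 genes. At least a 2-fold difference in favor of WT MEFs was found for 7 members, against 8.38% of all genes, and in favor of p53-/- MEFs for 1, against 9.86%. The 7 were Itgb4 (4.47), Itgb7 (2.29), Ptk2 (2.23), Itga6 (2.17), Actn1 (1.74), Itga9 (1.23) and Cdh2 (1.10), and the 1 was Itga7 (−1.63). The repeat-spot SD for such a difference was 0.16. Only 12 genes had a larger difference than Itgb4. When signals had to exceed the brightest negative control, Itgb4 and Itgb7 could no longer be compared, and when probes were averaged Cdh2 stayed below 2-fold. Itgb4, Itgb7, Itga6 and the brighter Ptk2 probe differed because the treated WT array was high. For Actn1 the untreated p53-/- array was the high one, with a log2 ratio of p53-/- over WT of 1.16 without and −0.58 with doxorubicin. Itga9 and Cdh2 were lowest on the treated p53-/- array. Their ratios of p53-/- over WT were 0.27 and 0.29 without and −0.95 and −0.81 with doxorubicin. The second Ptk2 probe gave a difference of just 0.51. Ptk2 stayed past 2-fold when its probes were averaged, but that average includes the third probe, which was mostly not well above background.

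In untreated MEFs, the genotypes differed little. Of 35 members measured, 1 was at least 2-fold higher in p53-/- MEFs, or 2.86% against 2.15% of all 17317 genes, and 2 were lower, or 5.71% against 2.62%. The higher gene was Actn1, with a log2 ratio of p53-/- over WT of 1.16 ± 0.20. The lower genes were Itga11, at −1.14 ± 0.20, and Itgb4, at −1.12 ± 0.31. The latter call was lost with normexp background correction and when signals had to exceed the brightest negative control. Itga3 and Lims2 stood just inside 2-fold, with ratios of 0.97 and −0.94.

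With doxorubicin, 6 of 37 members measured were at least 2-fold lower in p53-/- than in WT MEFs, or 16.2% against 10.3% of all 17918 genes, and 1 was higher, or 2.70% against 11.9%. With array median scaling 10 were lower, when 11.4% of all genes were. The lower ones were Itgb4 (−5.60 ± 0.31, a 48.4-fold difference, or 27.4-fold with normexp), Itga6 (−2.36 ± 0.20), Ptk2 (−2.34 ± 0.20), Itgb7 (−1.70 ± 0.21), Cdh13 (−1.53 ± 0.21) and Tns1 (−1.09 ± 0.20). Among all genes, 14 had a lower ratio than Itgb4. The higher one was Itga7, at 1.27 ± 0.20, and Itga5 stood at the threshold, 1.99-fold higher, and passed it with quantile normalization. The call of Tns1 was lost when probes were averaged. That of Ptk2 was kept, but its second probe gave just −0.45. This comparison and those above share arrays, so their counts are not independent of each other.

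Other genes of attachment were counted from lists made by role. Among 9 other integrin chains, 4 were measured with doxorubicin in each genotype and none passed 2-fold. Of the adaptor list, 6 of 22 measured genes were lower and 0 higher in WT MEFs, and 7 of 24 were lower and 1 higher in p53-/- MEFs. For these and the lists that follow, the shares of all genes were 11.0% higher and 10.4% lower in WT and 9.24% higher and 6.89% lower in p53-/- MEFs. Lpp, a zyxin relative, had the lowest adaptor ratios, −2.03 in WT and −2.94 in p53-/- MEFs, and the kindlin of blood cells, Fermt3, was the higher one at 1.02 in p53-/- MEFs. The untreated p53-/- signal of Fermt3, 0.0430, was below the brightest negative control of that array. Kank1, which surrounds adhesions, was 2.84-fold and 1.62-fold lower, and Tgfb1i1, the paxillin relative Hic-5, had −0.67 and −1.75.

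Of the other signaling genes, 3 of 19 were higher and 2 lower in WT MEFs, and 1 of 18 was higher and 2 lower in p53-/- MEFs, which as percentages are 15.8 and 10.5 in WT and 5.56 and 11.1 in p53-/- MEFs. Dock1, which activates Rac downstream of p130Cas, was lower in both, at −2.68 in WT and −2.86 in p53-/- MEFs. The Src family kinase Fyn had −1.95 and −2.05. Both were lower to a like extent in either genotype. In contrast, Ptk2b, which encodes the relative of focal adhesion kinase called Pyk2, had scaled signals of 0.625 and 1.41 in WT and 0.395 and 0.230 in p53-/- MEFs, and ratios of 1.17 and −0.78. Efs, a p130Cas relative, had 1.49 and −0.42. These 2 thus had ratios of opposite sign in the genotypes, as the brighter Ptk2 probe had. Cav1, the caveolin of membrane pits, was 2.11-fold and 2.82-fold higher.

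Of the ligands in the matrix and on cells, 5 of 24 were higher and 8 lower in WT MEFs, and 3 of 22 were higher and 5 lower in p53-/- MEFs. The higher genes made up 20.8% and 13.6%, and the lower ones 33.3% and 22.7%, in WT and p53-/- MEFs. Lamb3, which encodes a chain of a laminin that Itga3 and the Itga6 and Itgb4 pair bind, had scaled signals of 0.0345 and 0.274 in WT MEFs and a ratio of 2.99, and in p53-/- MEFs, where it was not well above background without doxorubicin, it was at least 4.12-fold higher with it. The latter signal was below the brightest negative control of untreated p53-/- MEFs. The untreated WT signal of Lamb3 was below the brightest negative control of its own array. Npnt, the nephronectin that Itga8 binds, had a ratio of 3.29 in WT MEFs and was not well above background in p53-/- MEFs. Icam1, a ligand of leukocyte integrins, was higher in both, at 2.46 and 2.84. Its untreated p53-/- signal of 0.0508 was below the brightest negative control of that array. Of the ligands that were lower, Spp1 (osteopontin) had −2.11 and −1.59, Tnc (tenascin-C, a ligand of Itga9) had −1.06 and −1.80, and Tgfbi, a matrix protein induced by TGF-beta, had −2.36 and −0.05.

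Of the genes of cell junctions, 2 of 15 were higher and 1 lower in WT MEFs, and 0 of 14 were higher and 2 lower in p53-/- MEFs. The shares were 13.3% higher and 6.67% lower in WT MEFs, near those of all genes, and 14.3% lower in p53-/- MEFs. The desmosome genes Dsp and Jup had ratios of 4.31 and 1.53 in WT MEFs, and Jup had 0.69 in p53-/- MEFs. The untreated signals of Dsp in WT (0.0517) and of Jup in p53-/- MEFs (0.0587) were below the brightest negative controls of their arrays. Untreated Dsp was not well above background in p53-/- MEFs, where the treated array was at least 9.88-fold above the lowest signal so marked and 2.32-fold above the brightest negative control. Ctnna2 (alpha-N-catenin) had −1.23 and −1.38, and Cdh4 (R-cadherin) had −0.75 and −1.08.

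Fibroblast markers differed with doxorubicin too. Their summed scaled signals were 743, 581, 589 and 490 in untreated WT, treated WT, untreated p53-/- and treated p53-/- MEFs. In WT MEFs 5 of 12 were at least 2-fold lower with doxorubicin, namely Lum (−4.81), Pdgfra (−3.36), Pdgfrb (−2.44), Prrx1 (−2.12) and Dcn (−1.30), and in p53-/- MEFs 3 of 12 were. For these and the muscle markers below, the shares of all genes lower were 10.4% in WT and 6.89% in p53-/- MEFs. Lum had a ratio of −2.34, Pdgfra −0.89, Pdgfrb −1.73, Prrx1 −1.81 and Dcn 0.30 in p53-/- MEFs. The median of the 12 markers was −0.82 in WT and −0.18 in p53-/- MEFs, the reverse of the order of the adhesion gene medians. Col1a1, Vim and Thy1 stayed within 2-fold in both genotypes. So did Twist1, at 0.26 in WT and 0.63 in p53-/- MEFs, and S100a4, with opposite signs at −0.90 and 0.98. Muscle markers were lower in part, since of 4 measured in each genotype 2 were at least 2-fold lower, Myh11 (−2.44 in WT and −2.70 in p53-/- MEFs) and Actc1 (−4.20 and −2.64), while Myod1 and Ckm were not well above background on any array. Their summed scaled signals over 7 markers were 14.1, 10.1, 19.2 and 18.2 in the same order. The part of these markers in the lower ratios of Itga11, Itgb3 and Cdh11 was not tested.

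Many adhesion genes are long, and gene length was set beside the ratios. Of the 16538 genes measured on all arrays, 13476 (81.5%) could be given a length from RefSeq annotation (assembly GRCm38.p6), used for ranks alone. All 35 members measured on all arrays had one, with a median at percentile 83.9, and 22 lay among the longest 20%. In p53-/- MEFs, 10 of these 22 were at least 2-fold lower with doxorubicin (45.5%), against 19.3% of all genes of that length, and 2 of the other 13 were (15.4%), against 4.17% of shorter genes. In WT MEFs, 5 of the 22 were lower (22.7%), against 16.8%, and 1 of the 13 (7.69%), against 10.2%. Tln2, Itga9 and Cdh2, at percentiles 98.9, 97.7 and 96.2, were among the lower ones in p53-/- MEFs, whereas Ptk2, at 96.1, was higher in WT MEFs by its brighter probe. The part of gene length in these ratios was not tested.

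**Figure D4:**
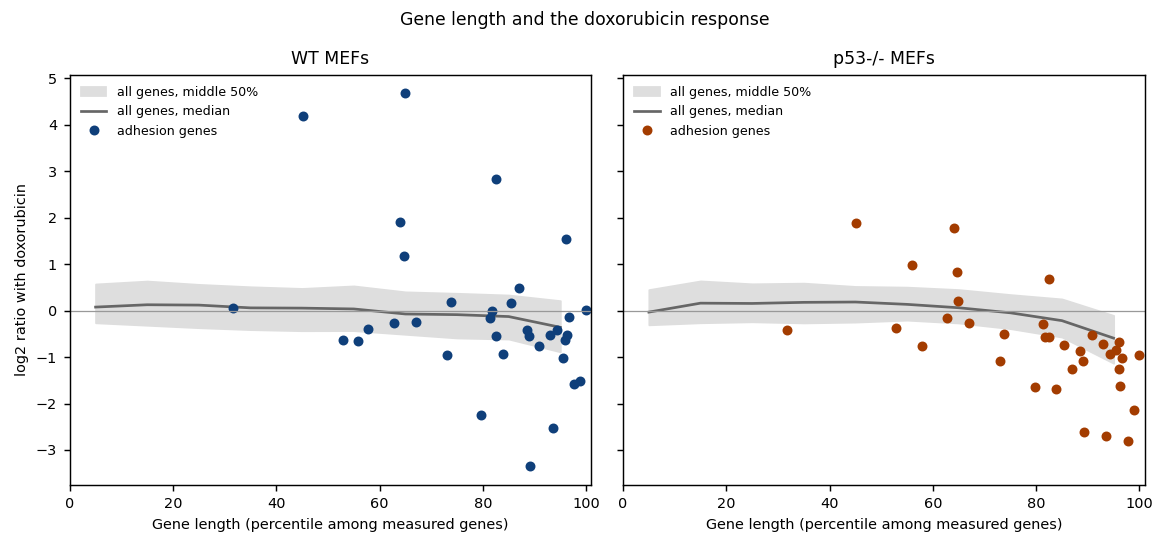
Log2 ratio with doxorubicin against the length percentile of a gene in WT (left) and p53-/- MEFs (right); points are the 35 adhesion genes, the line is the median of all genes along length and the band holds the middle 50% of genes. Most points of the longest genes lie below 0, and in p53-/- MEFs many lie under the band.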

How the data were processed

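The 4 samples (WT or p53-/- MEFs, untreated or with doxorubicin) were measured on 1 array each. The authors labeled total RNA (200 ng) with Cy3 and scanned spots by Feature Extraction version 10.7.3.1 (Agilent, from the file headers), which subtracted background and corrected trends within the array. The deposited intensity of a spot is this processed signal, not normalized between arrays, and the deposited value table held equal intensities at all 44397 features. The deposited flags, a score of 0 or 1 per spot, mark spots well above background, saturated spots (0 here) and outliers (145 to 168 per array, left out). Log2 intensities of repeat spots were averaged, and the 75th percentile of each array (signals of 2074, 1819, 1881 and 2421 for untreated WT, treated WT, untreated p53-/- and treated p53-/- MEFs) was subtracted. Between 56.9% and 62.9% of probes were well above background. Where 1 array of a pair was not, a bound was set from the lowest signal so marked there. Positions of probes were taken from the files, in mm9.

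The members and gene lists were chosen with earlier results of these data known. Every member is named, with Trp53, and from each list of other genes up to 2 with the largest rise and 2 with the largest fall of at least 2-fold in either genotype. A few list genes are counted and summed but not reported here by name. Array names Plec1, Tenc1, Mllt4, Pvrl1, Pvrl3, Lamb1-1 and Emr1 stood for Plec, Tns2, Afdn, Nectin1, Nectin3, Lamb1 and Adgre1, and Nectin2 was not found. Protein motifs planned for integrin tails and fibronectin were not analysed here. With 1 array per condition no test was run, and the number of arrays limits the precision. The steps were tested on simulated data. Alternatives were array median scaling, quantile normalization, normexp (limma 3.58.1, R 4.3.3, offset 50), dim probes kept, all 4 arrays required to be well above background, signals above the brightest of 153 negative controls, averaging the probes of a gene, the deposited value table, and RefSeq names. Python 3.11.15 with numpy 2.4.6, pandas 2.3.3 and matplotlib 3.10.9 was used.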

Additional observations from a re-analysis of the deposited data

Results flagged for a closer look

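Among the 35 adhesion genes measured on all arrays, 2 differed by at least 1.5-fold with doxorubicin in opposite directions in the genotypes (5.71%), against 477 of 16538 genes (2.88%). The log2 ratio of Itga7 was −0.66 in WT and 0.97 in p53-/- MEFs, a difference of −1.63. Ptk2 had 1.54 and −0.68, a difference of 2.23, by its brighter probe. With 1 array per condition, these differences between genotypes were not tested.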

How the results depend on the processing

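No paired analysis was possible because each condition had 1 array and the labels give no replicate numbers. For the same reason no array could be left out, and with 1 slide there was no slide block to fit. Of the counts and medians of members under alternatives, 106 stayed within tolerance (counts within 1.5-fold of the value reported, medians within the repeat-spot SD) and 11 moved, and no called value changed sign. The deposited value table, with equal intensities, and RefSeq names, which renamed 0 member probes, could not change any member value. Their results are among those that stayed, here and for single genes below. Array median scaling moved the median of the members from −0.41 to −0.69 in WT and from −0.75 to −1.05 in p53-/- MEFs, raised the members lower with doxorubicin in p53-/- MEFs from 12 to 19, and raised those lower in p53-/- than WT MEFs with doxorubicin from 6 to 10. Since the median of all genes moved to −0.27 and −0.30 as well, the members shifted with the rest. Quantile normalization gave 2 members in place of 1 that were higher in p53-/- than WT MEFs with doxorubicin. Normexp gave 1 member in place of 2 lower in untreated p53-/- MEFs. With no filter on dim probes, 6 members in place of 2 were higher with doxorubicin in p53-/- MEFs (Itga2, Itgb8, Cdh1 and Pxn were added), 2 in place of 1 were higher in untreated p53-/- than WT MEFs, and 2 in place of 1 with doxorubicin. These added values rest on signals not well above background. When signals had to exceed the brightest negative control, 1 member in place of 2 was higher with doxorubicin in p53-/- MEFs, as Itgb7 was lost, and 1 in place of 2 was lower in untreated p53-/- MEFs, as Itgb4 was lost. Among values of single genes, 1434 stayed within the repeat-spot SD (0.11, or 0.16 for a difference of ratios) and 156 moved. The cause of the moves was not tested. Signal over background limits the members Itga2, Itgb4, Itgb7, Itgb8, Cdh1 and Pxn. Outside the members it also limits genes such as Dsp, Jup, Lamb3, Icam1, Fermt3, Pkp1 and Dsc2.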

Other observations

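Genes of hemidesmosomes and desmosomes, the epithelial junctions to which Itgb4 and Dsp belong, were looked up after the values of Itgb4 and Dsp had been seen. Plec, the plectin that ties Itgb4 to keratin filaments, had scaled signals of 41.7 and 78.5 in WT and 36.5 and 41.0 in p53-/- MEFs, and log2 ratios of 0.91 and 0.17. Lama3, a laminin chain of this junction, had 1.41 and −0.27, Dst had −0.72 and −1.02, Cd151 had 0.84 and 0.83, and Col17a1 was not well above background on any array. Of 9 desmosome genes, 4 of 6 measured were at least 2-fold higher in WT MEFs (Dsp, Jup, Pkp1 and Perp) and 2 of 5 in p53-/- MEFs (Pkp1 and Perp), where 11.0% and 9.24% of all genes were. Dsp prompted this list and Jup was already counted among the junction genes, so the WT count is not separate from those values. Pkp2 and Pkp3 stayed within 2-fold, at 0.20 and 0.12 in WT and −0.18 and −0.31 in p53-/- MEFs. In p53-/- MEFs, Dsp and Dsc2 were not well above background without doxorubicin and were at least 9.88-fold and 3.35-fold higher with it. Only the bound of Dsp remained against the brightest negative control, at 2.32-fold. Dsc2 was higher in p53-/- than WT MEFs with doxorubicin, with a log2 ratio of 1.78. Perp, a desmosome gene known as a p53 target, had scaled signals of 2.27 and 48.1 in WT and 0.164 and 2.17 in p53-/- MEFs, with ratios of 4.40 and 3.73, and Pkp1 had 2.21 and 1.49. The untreated p53-/- signal of Pkp1, 0.0540, was below the brightest negative control of that array.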
